A study of Mus musculus with 3 samples.

Results

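Astrocyte sub-cluster 1 is a group of 438 nuclei among the 1555 astrocytes of 14662 single nuclei from mouse lumbar spinal cord. Its members were taken from the deposited table of nuclei, as all nuclei that carry the type astrocyte and the astrocyte sub-cluster number 1. The other sub-clusters are number 0 with 524 nuclei, number 2 with 220, number 3 with 195 and number 4 with 178.

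The study sequenced RNA of single nuclei from 12 mice aged 90 days, 3 of each sex and genotype. The SOD1G93A mice are of the strain B6.Cg-Tg(SOD1*G93A)1Gur/J, which carries a transgene for human SOD1 with a mutation found in familial amyotrophic lateral sclerosis, and the WT mice are their littermates on C57BL/6J. Nuclei of each mouse were tagged with hashtag antibodies, and the mice were spread over 3 pools, A, B and C, so that a female and a male of both genotypes shared each pool. The transgene is present in many copies and is carried by every cell type, so that a change in astrocytes cannot be told apart from a response to other cells of the same mouse.

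Astrocytes take up glutamate and potassium around synapses, move water through aquaporin 4 at their endfeet, and supply neurons with lipids and metabolites. In the spinal cord, astrocytes of the gray matter (protoplasmic) lie among neurons and carry high levels of glutamate transporters, and those of the white matter (fibrous) lie among axons and carry more glial fibrillary acidic protein (Gfap). In injury and in motor neuron disease, astrocytes become reactive, with a rise of Gfap.

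A mouse gave 5 to 98 nuclei of sub-cluster 1, and 33885 to 576315 UMIs over them. WT mice held 345 of the nuclei and SOD1G93A mice 93. The 3 female SOD1G93A mice had 9, 5 and 7 nuclei in pools A, B and C, so all 3 lie under 10 nuclei, and every value of a female SOD1G93A mouse rests on few nuclei. The median nucleus held 5365 UMIs, close to the 5326 UMIs of the other astrocytes, but 2128.5 genes, against 2378 genes in the other astrocytes. Of all nuclei, 15 barcodes occurred in more than 1 pool, and 1 nucleus of sub-cluster 1 carried such a barcode.

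The label was checked on 3 astrocyte genes, in CPM, the UMIs of a gene scaled to 1e6 UMIs of all genes in the summed nuclei of a mouse. Slc1a2, the main glutamate transporter of astrocytes, lay between 4577 and 5946 CPM in sub-cluster 1 over the 12 mice, against 142 to 208 CPM in nuclei of all other types. Aqp4, the water channel, lay between 209.9 and 797 CPM in sub-cluster 1, against 15.4 to 27.7 CPM in the other types. Gfap lay between 45.2 and 382 CPM in sub-cluster 1, against 7.93 to 20.4 CPM in the other types and 308 to 740 CPM in the other astrocytes. The 3 genes thus lay above the other types in every mouse, but Gfap and Aqp4 were lower than in the rest of the astrocytes, where Aqp4 had a median of 1140 CPM over mice against 372 CPM in sub-cluster 1. Sub-cluster 2 was lower still in Aqp4, with a mean of 225 ± 94.9 CPM against 339 ± 84.0 CPM in sub-cluster 1 (SD, 9 mice with at least 10 nuclei of sub-cluster 1). Slc1a2 was at like levels in sub-cluster 1 and in the summed other astrocytes, with medians of 5335 and 5753 CPM over mice.

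The marker genes describe how the nuclei of sub-cluster 1 differed from the other astrocytes of the same mouse. They are given without a test, because the nuclei were grouped on the levels of these genes. In the 9 mice with at least 10 nuclei, 432 of 3827 genes with a mean of at least 50 CPM on the higher side differed by a median of more than 2-fold, with the same direction in every mouse. Of these, 16 were higher in sub-cluster 1 and 416 were lower. The sub-cluster was therefore set apart mainly by what it had less of. Without the 2-fold limit, 272 of the 3827 genes were higher and 678 were lower in every mouse, and the counts of list members below stand beside these. A gene could enter these counts through its level on the higher side alone. Of the 20 astrocyte identity genes, 3 were higher and 11 lower in every mouse, with a median log2 ratio of -0.61.

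The most abundant of the higher markers was Gpc5, a cell-surface glypican, at chr14:115092215-116525179 in GRCm38. Gpc5 was at 13733 ± 1812 CPM in sub-cluster 1 (mean ± SD, n = 9 mice) and at 6086 ± 1162 CPM in the other astrocytes. Its log2 ratio had a median of 1.22 and ran from 0.82 to 1.51 over the mice. Sub-cluster 0 came next, at 8271 ± 891 CPM, and sub-cluster 3 was lowest, at 1310 ± 454 CPM. The higher marker of the largest ratio was Gm49164, a predicted gene, with a median log2 ratio of 1.48.

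The other higher markers included receptors, matrix genes and signalling genes. Frem1, an extracellular matrix protein, was at 137 ± 31.3 CPM against 46.4 ± 8.20 CPM. Lgr6, a receptor for R-spondins, was at 122 ± 31.5 CPM against 56.7 ± 18.9 CPM, and Cdh22, a cadherin, was at 265 ± 53.4 CPM against 126 ± 25.4 CPM. Vav3 was at 483 ± 144 CPM against 213 ± 40.7 CPM. Galnt18, of the family that starts O-glycosylation, was at 988 ± 320 CPM against 462 ± 153 CPM. Wipf1, which binds the Wiskott-Aldrich syndrome protein, and Nrros, which takes part in the handling of latent TGF-beta, had median log2 ratios of 1.06 and 1.08. The remaining genes among the 15 of the largest ratio were Ccnjl, Fam19a4, Gm31135, Gm44257, Gm11713 and Fam227b, with median log2 ratios from 1.06 to 1.46.

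Of the 12 genes of the gray matter list at 50 CPM, 5 were higher in every mouse, 1 was lower and the others differed in direction between mice, with a median log2 ratio of 0.24, beside -0.10 over all 3827 genes. The genes named next were all higher in every mouse, and Slc7a10 among them was named outside the rule for named genes. The members that were lower or of mixed direction are not named here. Trpm3, a cation channel, was at 16085 ± 1415 CPM against 9112 ± 1055 CPM. Grin2c, an NMDA receptor subunit of astrocytes, was at 96.8 ± 22.1 CPM against 53.7 ± 15.7 CPM, and Slc7a10, a transporter of neutral amino acids, was at 350 ± 73.9 CPM against 201 ± 36.2 CPM. Sub-cluster 0 lay nearer, with 12383 ± 1079 CPM for Trpm3, 79.0 ± 23.9 CPM for Grin2c and 282 ± 46.2 CPM for Slc7a10, and for the last 2 genes its mean was within 1 SD of that of sub-cluster 1.

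Of the lower markers, Gfap, at chr11:102887336-102900912, was at 72.0 ± 39.6 CPM in sub-cluster 1 and at 430.4 ± 116 CPM in the other astrocytes. Its log2 ratio had a median of -2.64, and it was lower in all 9 mice. Sub-cluster 2 was about as low as sub-cluster 1, at 83.9 ± 63.2 CPM, and sub-cluster 3 was highest, at 1237 ± 221 CPM. Cd44, the hyaluronan receptor of fibrous astrocytes, was at 4.83 ± 7.72 CPM against 53.4 ± 18.5 CPM. Id4, an inhibitor of differentiation, was at 35.6 ± 23.8 CPM against 297 ± 51.2 CPM, and Igfbp5, which binds insulin-like growth factors, was at 5.62 ± 6.31 CPM against 75.001 ± 18.5 CPM. On the white matter list, 6 of 7 genes at 50 CPM were lower in every mouse and none was higher, with a median log2 ratio of -1.42.

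Some lower markers were set by 1 other sub-cluster. Ebf2, a transcription factor, was at 310.3 ± 233 CPM in sub-cluster 2 and at 9.64 ± 7.06 CPM in sub-cluster 1. Kif26b, a kinesin, and Hs3st4, a heparan sulfate sulfotransferase, were likewise highest in sub-cluster 2, at 178 ± 87.9 and 272 ± 161 CPM, against 13.1 ± 12.6 and 20.0 ± 13.1 CPM. Pdzrn3, Klhl29 and D430041D05Rik completed the 10 lowest, with median log2 ratios from -3.32 to -2.66. With sub-cluster 0 alone as the comparison, 145 genes passed the same rule, 3 of them higher. The ratio of Gpc5 was then 0.70 and that of Gfap -1.97.

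**Figure D1:**
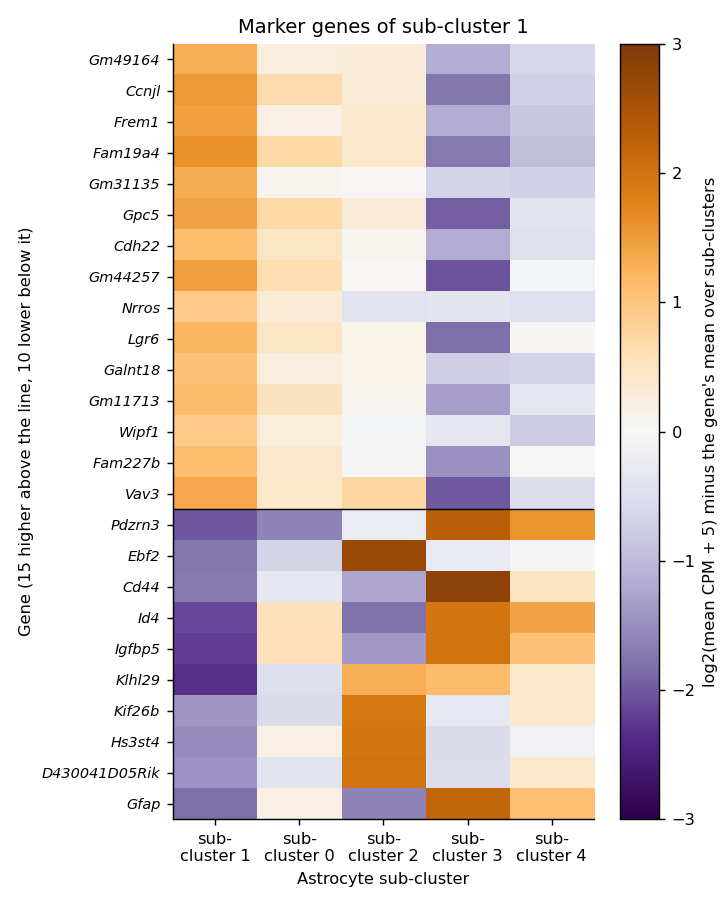
Heat map of the 15 higher and 10 lower marker genes of the largest ratio (rows) in the 5 astrocyte sub-clusters (columns). Colours give log2 of the mean CPM over 9 mice (7 in sub-cluster 4) plus 5, less the gene's mean over the sub-clusters. Sub-cluster 3 has the lowest Gpc5, 1310 CPM, and the highest Gfap, 1237 CPM.

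Ribosomal, ferritin, neuron and oligodendrocyte genes were also lower in sub-cluster 1. Of 32 cytosolic ribosomal protein genes at 50 CPM, 26 were lower in every mouse, with a median log2 ratio of -1.53. Of 30 respiratory chain genes 9 were lower in every mouse, beside 678 of all 3827 genes. Ribosomal genes could enter through their level in the other astrocytes alone, which favours a lower ratio, so the count is a description. Without the level rule, the 82 ribosomal genes in WT mice summed to 742 to 1642 CPM in sub-cluster 1 and 2589 to 4218 CPM in the other astrocytes. The 4 metallothionein and ferritin genes were all lower, and Fth1, the ferritin heavy chain, was at 413 ± 84.0 CPM against 1863 ± 329 CPM. Sub-cluster 2 was about as low in these genes. On the CPM scale of the genotype fits below, Fth1 in WT mice was at 466 ± 115 in sub-cluster 1 and 550 ± 222 in sub-cluster 2. In sub-clusters 0, 3 and 4 it was at 1622, 3755 and 7283 CPM. Mt1, Mt2 and Mt3 were at 192, 52.0 and 89.1 CPM in sub-cluster 2 of WT mice, against 211, 91.4 and 97.2 CPM in sub-cluster 1. Mitochondrial UMIs, which come from outside the nucleus, made up a median of 0.310% of the UMIs of a nucleus in sub-cluster 1, against 0.528%, 1.37%, 1.84% and 6.08% in sub-clusters 2, 0, 3 and 4.

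The 8 neuron markers summed to 434 to 743 CPM in sub-cluster 1 of WT mice and to 442 to 529 CPM in SOD1G93A mice, against 1131 to 1690 and 979 to 2215 CPM in the other astrocytes. The 8 oligodendrocyte markers summed to 574 to 933 CPM in WT mice and to 464 to 1587 CPM in SOD1G93A mice, against 1630 to 2518 and 1920 to 3535 CPM. None of the defining markers on either list was at 0. The 7 microglia markers were not lower as a list, with 44.0 to 137 CPM in WT and 27.3 to 177 CPM in SOD1G93A mice, against 29.8 to 124 and 44.2 to 109 CPM in the other astrocytes, and the ranges of the endothelial and mural, fibroblast and ependymal lists overlapped as well. No nucleus of the 438 carried either list at the median level of the nuclei of that type, as against 100 of the 1117 other astrocytes and 39.3% of sub-cluster 4. The part of RNA from other cells or from outside the nucleus in the marker ratios was not tested.

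The markers differed in gene length. The gene length, from start to end in the GENCODE M21 annotation of GRCm38, had a median of 161 kb over the 16 higher markers and 80.3 kb over all genes at 50 CPM. Of the lower markers, 31.2% were shorter than 20 kb, against 11.4% of all genes, and 53.4% were longer than 100 kb, against 41.8%. The lower markers thus held many short and many long genes. These shares are a description, since the marker rule used the same levels.

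The share of the astrocytes of a mouse that fell in sub-cluster 1 was lower in SOD1G93A mice. In WT mice it was 33.3%, 26.9% and 41.5% in the females of pools A, B and C and 42.6%, 34.8% and 42.1% in the males. In SOD1G93A mice it was 20.0%, 4.81% and 12.96% in the females and 13.1%, 15.7% and 21.6% in the males. Every SOD1G93A mouse lay below every WT mouse, with means of 14.7% ± 6.00 and 36.9% ± 6.30 (SD, n = 6 mice each). The fitted log2 difference of the share, SOD1G93A minus WT, was -1.40 with sex and pool in the model. No test is given, because Gfap, one of the genes that set the sub-cluster apart, also rose with genotype in the other astrocytes, and a nucleus whose genes moved could be allotted to another sub-cluster.

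Over all nuclei of a mouse, sub-cluster 1 made up 2.06% to 5.82% in WT mice and 0.583% to 3.47% in SOD1G93A mice, and on this scale the groups overlapped. The share of sub-cluster 3, the one of the highest Gfap, was 7.56% to 12.0% of astrocytes in WT mice and 13.4% to 31.1% in SOD1G93A mice, with no overlap. Shares of a whole cannot move alone, so that the lower share of sub-cluster 1 and the higher share of sub-cluster 3 are not separate results. Sub-clusters 0, 2 and 4 overlapped between genotypes. The median UMIs per nucleus in sub-cluster 1 were 3648.5 to 6926 in WT mice and 3750 to 6489 in SOD1G93A mice, and the median mitochondrial percent was 0.239 to 0.644 and 0.239 to 0.392. In the other astrocytes, the median mitochondrial percent was 1.02 to 1.62 in WT mice (mean 1.34) and 1.25 to 2.72 in SOD1G93A mice (mean 1.87). The part of this difference in the shares was not tested.

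**Figure D2:**
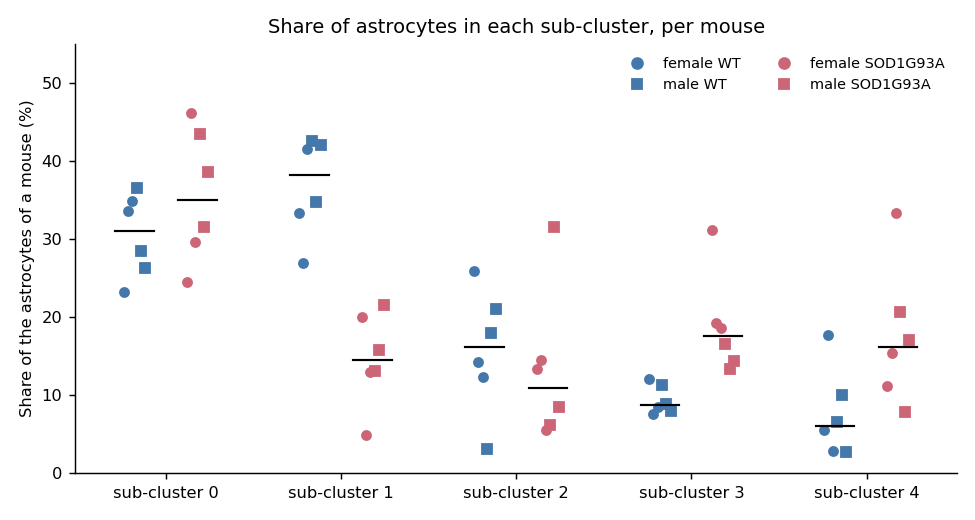
Share of the astrocytes of each mouse, in percent, in the 5 sub-clusters. Points are mice, circles female and squares male, blue WT and red SOD1G93A, and lines are medians of 6 mice. In sub-cluster 1 the WT mice lie between 26.9% and 42.6% and the SOD1G93A mice between 4.81% and 21.6%.

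Genotype was then compared within sub-cluster 1, on UMIs summed per mouse, with the mean of both sexes and the pool in the model. In this comparison CPM was taken over the UMIs of the 3309 genes tested, with library sizes scaled by TMMwsp factors, and lies above the CPM of the marker comparison. No gene passed FDR < 0.1 in limma-voom, neither higher (0%) nor lower (0%) in SOD1G93A mice, while 251 of the 3309 genes had an unadjusted p below 0.05. Of the genes, 1745 had a positive and 1564 a negative log2 difference, with a median of 0.02. The test with edgeR passed 0 genes and DESeq2 passed 1, Lrmda. The values below are thus differences that did not pass, and a gene that missed the threshold is not shown to be the same in both genotypes. The nuclei were grouped on gene levels, so a nucleus whose genes moved with genotype could be allotted to another sub-cluster. The part of this in the genotype differences was not tested.

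Sod1, at chr16:90220754-90226329, takes up reads of the mouse gene and any reads of the human transgene that align to it. In sub-cluster 1 it was at 172, 124 and 116 CPM in the female WT mice of pools A, B and C and at 223, 65.1 and 89.0 CPM in the males. In SOD1G93A mice it was at 377, 34.2 and 221 CPM in the females and at 295, 155 and 161 CPM in the males. The groups overlapped, and the counts behind them were low, 221 UMIs over the WT mice and 92 over the SOD1G93A mice. The log2 difference, SOD1G93A minus WT, was 0.70 ± 0.24 (SE), higher in 5 of 6 pairs of mice of the same sex and pool, with FDR = 0.298 in limma-voom.

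In the other astrocytes Sod1 separated the genotypes, at 63.9 to 351 CPM in WT and 413 to 1490 CPM in SOD1G93A mice, with a log2 difference of 2.42 ± 0.18 and FDR = 1.13e-06 in limma-voom. This sum was another mix of sub-clusters in each genotype. Sub-cluster 3 made up a mean of 9.35% of astrocytes in WT and 18.9% in SOD1G93A mice, and sub-cluster 4 made up 7.53% and 17.6%. The part of the mix in the difference of 2.42 was not tested. The 5 sub-clusters, each fitted on its own, gave log2 differences of 0.70 ± 0.24 in number 1, 1.34 ± 0.26 in number 2, 1.97 ± 0.15 in number 0, 2.34 ± 0.23 in number 3 and 3.54 ± 0.30 in number 4. This order was the same as that of the median mitochondrial percent. It rests on few nuclei in some mice. Sub-cluster 4 held 2.83% of the 106 astrocytes of the WT female of pool C and 2.63% of the 114 of the WT male of pool C. That male had 0 UMIs of Sod1 there. CPM was taken over the genes tested in each set, 2331 in sub-cluster 4 and 3309 in sub-cluster 1, so levels are not on 1 scale. The part of RNA from outside the nucleus in these differences was not tested.

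The difference between sub-cluster 1 and the other astrocytes was tested itself, with both sums of a mouse in 1 model. The other astrocytes were another mix of sub-clusters in each genotype, and the allotment of nuclei by gene level bears on both sums. The part of either in the result was not tested. For Sod1 it was -1.89 ± 0.36 on the log2 scale, with FDR = 0.134 in limma-voom, which did not pass. Over the alternatives the FDR ran from 0.00023, without the 3 mice of fewer than 10 nuclei, to 0.942, with a higher minimum count. The former fit has no SOD1G93A female and gives the difference in males alone. Against sub-cluster 0 alone the difference was -1.34 and passed, with FDR = 0.0457. It also passed when the WT female of pool A, the WT male of pool C or the SOD1G93A female of pool A was left out, with FDR = 0.0131, 0.0998 and 0.000284. The direction was negative in every fit.

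**Figure D3:**
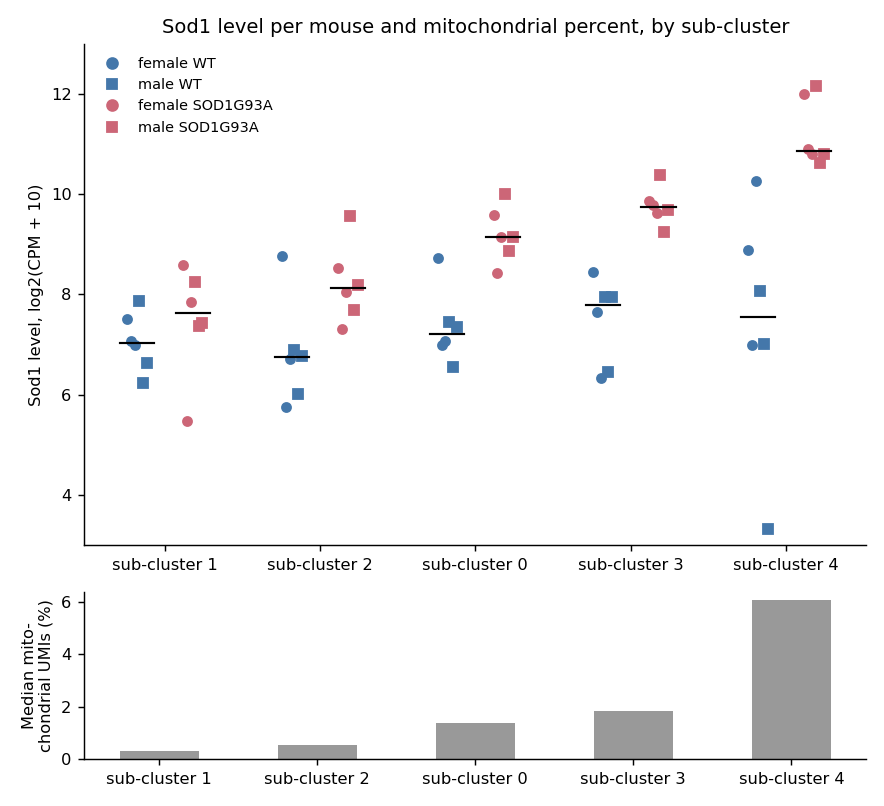
Top, Sod1 level of each mouse as log2(CPM + 10) in the 5 sub-clusters, ordered by mitochondrial percent, with circles female, squares male, blue WT, red SOD1G93A and lines for medians of 6 mice. Bottom, bars of the median percent of mitochondrial UMIs per nucleus, from 0.310% in sub-cluster 1 to 6.08% in sub-cluster 4.

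Over all 6450 genes, no gene's genotype difference in sub-cluster 1 departed from that in the other astrocytes at FDR < 0.1 in limma-voom (0%), and 409 had an unadjusted p below 0.05. Besides Sod1, the genes of the smallest p with a lower difference in sub-cluster 1 were Nfe2l1, a transcription factor of proteasome genes, Hsd17b4, a peroxisomal enzyme, Cnn3, a calponin, and Lrmda. Those with a higher difference were Pter, Vps72, Gm42556, Pla2g16 and Galnt10. Their log2 differences between the sets ran from -1.52 to -1.39 and from 1.06 to 2.36. Pter, Vps72, Gm42556, Pla2g16 and Nfe2l1 had 9 to 66 UMIs per genotype in sub-cluster 1, too few for a test there alone.

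Gfap, the intermediate filament that rises in reactive astrocytes, did not pass either. It was at 54.8, 103 and 66.4 CPM in the female WT mice of pools A, B and C and at 75.8, 56.7 and 52.3 CPM in the males. In SOD1G93A mice it was at 439.6, 171 and 66.2 CPM in the females and at 76.5, 204 and 74.5 CPM in the males. Of the SOD1G93A mice, 3 lay above all WT mice and the other 3 within the range of WT mice. The log2 difference was 1.15 ± 0.30, with FDR = 0.211 in limma-voom, from 112 UMIs over the WT and 62 over the SOD1G93A mice. It passed when the WT female of pool C or the SOD1G93A male of pool A was left out, with 1.24 and 1.35 on the log2 scale and FDR = 0.0869 and 0.0599. In the other astrocytes, which hold more Gfap, it was 0.79 ± 0.11 with FDR = 0.00166. These nuclei were another mix of sub-clusters in each genotype, with the larger share of the Gfap-rich sub-cluster 3 in SOD1G93A mice given above. Fitted singly, Gfap had 0.86 ± 0.15 in sub-cluster 0, which passed with FDR = 0.00219 in limma-voom, and 0.67 ± 0.25, 0.28 ± 0.43 and 0.22 ± 0.15 in sub-clusters 4, 2 and 3, which did not pass.

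The other genes with the smallest p for a higher level in SOD1G93A mice were Gm32569, Errfi1, Galnt10, Zbtb7c and Ptn. Errfi1, a feedback inhibitor of the EGF receptor, was at 204 to 489.6 CPM in WT mice (median 282) and at 229.6 to 959 CPM in SOD1G93A mice (median 515). Its log2 difference was 0.81 ± 0.18, with FDR = 0.157 in limma-voom and 5 of 6 pairs higher, and the 2 highest values were those of female SOD1G93A mice. Errfi1 passed in limma-voom without the robust option of eBayes (FDR = 0.0964) and with voomWithQualityWeights (FDR = 0.0803). It also passed without the WT female of pool C, the WT male of pool B or the SOD1G93A male of pool B, with FDR = 0.0039, 0.0111 and 0.098. The difference was 1.29 ± 0.28 in females and 0.34 ± 0.23 in males. Ptn, the growth factor pleiotrophin, had 0.93 ± 0.25, with like values in females and males, 0.94 ± 0.42 and 0.93 ± 0.27, and was higher in 6 of 6 pairs.

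Galnt10, another gene of O-glycosylation, had a log2 difference of 0.82 ± 0.21, with 1.34 ± 0.32 in females and 0.29 ± 0.27 in males. Zbtb7c, a zinc finger gene, had 1.35 ± 0.36, with 2.43 ± 0.55 in females and 0.27 ± 0.46 in males. Gm32569, a predicted gene, had 1.68 ± 0.38, with 2.41 ± 0.60 in females and 0.95 ± 0.47 in males, from 52 UMIs over the WT and 34 over the SOD1G93A mice. Gm32569 passed in limma-voom without the robust option of eBayes (FDR = 0.0964) and with voomWithQualityWeights (FDR = 0.0803). Without the WT female of pool A or C, or the SOD1G93A male of pool B, its FDR was 0.0737, 0.0248 and 0.098. Galnt10 passed in limma-voom without the WT female of pool C (FDR = 0.0749). The female values rest on the SOD1G93A females of 5 to 9 nuclei, and a like direction in at least 5 of 6 pairs was part of the rule that chose these genes. Of all 3309 tested genes, 349 were higher in at least 5 of 6 pairs. In the other astrocytes Zbtb7c had 0.47 ± 0.24, and the differences of Errfi1, Galnt10, Ptn and Gm32569 were 0.13 ± 0.13, -0.36 ± 0.18, 0.12 ± 0.14 and -0.02 ± 0.23. Errfi1 differed by 0.75 ± 0.21 in sub-cluster 3 fitted singly, near its value in sub-cluster 1, and by -0.07 ± 0.15 in sub-cluster 0, and neither passed.

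The genes of the smallest p for a lower level were Lrmda, Stk32a, Vav3, Shisa6, Kcnma1 and Cadm2. A lower level in at least 5 of 6 pairs was part of the rule that chose them, so their counts of pairs are a description. Of all 3309 tested genes, 470 were lower in at least 5 of 6 pairs. Stk32a, a kinase, was at 573 to 1156 CPM in WT mice (median 931) and at 445 to 722 CPM in SOD1G93A mice (median 615), with a log2 difference of -0.61 ± 0.16, FDR = 0.211 in limma-voom, and lower in 6 of 6 pairs. It passed in limma-voom without the WT female of pool B or the SOD1G93A males of pool A or B, with FDR = 0.0225, 0.0942 and 0.098. In male mice alone the difference of Stk32a was -0.87. Lrmda, a gene of melanocyte differentiation, was at 180 to 642 CPM in WT mice (median 463) and at 21.9 to 279 CPM in SOD1G93A mice (median 187), with a difference of -1.31 ± 0.32. Both were lower in every pair, with some overlap between the groups. Lrmda passed in limma-voom without the robust option of eBayes (FDR = 0.0964). Without the WT female of pool A or the WT male of pool B, Lrmda passed with FDR = 0.0366 and 0.0111. Without the SOD1G93A male of pool A its FDR was 0.0599. In the other astrocytes the differences were -0.16 ± 0.18 for Stk32a and 0.03 ± 0.16 for Lrmda. The other 4 genes had -0.40 ± 0.16 for Vav3, -0.30 ± 0.14 for Shisa6, -0.25 ± 0.15 for Kcnma1 and -0.17 ± 0.10 for Cadm2 over this mix, and none passed. Fitted singly, Kcnma1 had 0.75 ± 0.31 in sub-cluster 3 and -0.14 ± 0.13 in sub-cluster 0, and Vav3 had 0.12 ± 0.19 in sub-cluster 0 and -0.57 ± 0.24 in sub-cluster 2, and none passed. Fitted singly, Stk32a had -0.54 ± 0.20 in sub-cluster 3 and -0.54 ± 0.32 in sub-cluster 2, close to sub-cluster 1, and 0.22 ± 0.21 in sub-cluster 0, none of which passed. Lrmda had positive values, 0.15 to 0.40, in all 4 other sub-clusters, and none passed.

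Kcnma1, the large-conductance potassium channel activated by calcium, was at 1295 to 1987.5 CPM in WT mice (median 1426) and at 942 to 1272 CPM in SOD1G93A mice (median 1084). Its groups did not overlap, and its log2 difference was -0.46 ± 0.13 with FDR = 0.211 in limma-voom. It passed without the WT female or the SOD1G93A male of pool B, with FDR = 0.0566 and 0.098 in limma-voom. Of all tested genes, 16 (0.484%) had no overlap between the 6 WT and the 6 SOD1G93A mice, 5 with SOD1G93A higher (0.151%) and 11 with SOD1G93A lower (0.332%). Among them, named after their values were seen, Tcf7l1, a Wnt pathway repressor, and Itpkb, an inositol kinase, were higher by 0.84 ± 0.23 and 0.42 ± 0.13, and Cntn6, a contactin, and Itih3 were lower, with -1.64 ± 0.49 and -1.11 ± 0.37. None of the 16 passed the FDR threshold in the main fit. Itpkb passed without the WT female of pool C, with FDR = 0.0869 in limma-voom.

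Shisa6, a partner of AMPA receptors, had -0.74 ± 0.20, and Cadm2, an adhesion molecule, had -0.31 ± 0.09, both lower in 6 of 6 pairs. Vav3, 1 of the higher markers of the sub-cluster, had -0.70 ± 0.19. Of the 16 higher markers, 11 had a negative and 5 a positive difference, which is a description, since the markers were chosen on sums of the same nuclei from 6 WT and 3 SOD1G93A mice. Galnt18 and Gpc5 had -0.88 ± 0.27 and -0.23 ± 0.08, and Fam19a4 and Frem1 had 0.58 ± 0.39 and 0.55 ± 0.26. Fitted singly, Gpc5 had -0.14 ± 0.08, -0.59 ± 0.16, 0.39 ± 0.16 and -0.26 ± 0.18 in sub-clusters 0, 2, 3 and 4, none of which passed. None of the 16 passed FDR < 0.1 in the main fit. With all mice Galnt18 passed in limma-voom without the robust option of eBayes, with FDR = 0.0964. Leaving out 1 mouse also made some pass in limma-voom. Galnt18 did so without the WT or the SOD1G93A male of pool A, with FDR = 0.00292 and 0.0942. Gpc5 passed without the WT female of pool C, with FDR = 0.00883, and Vav3 without the WT female of pool B, with FDR = 0.0518.

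**Figure D4:**
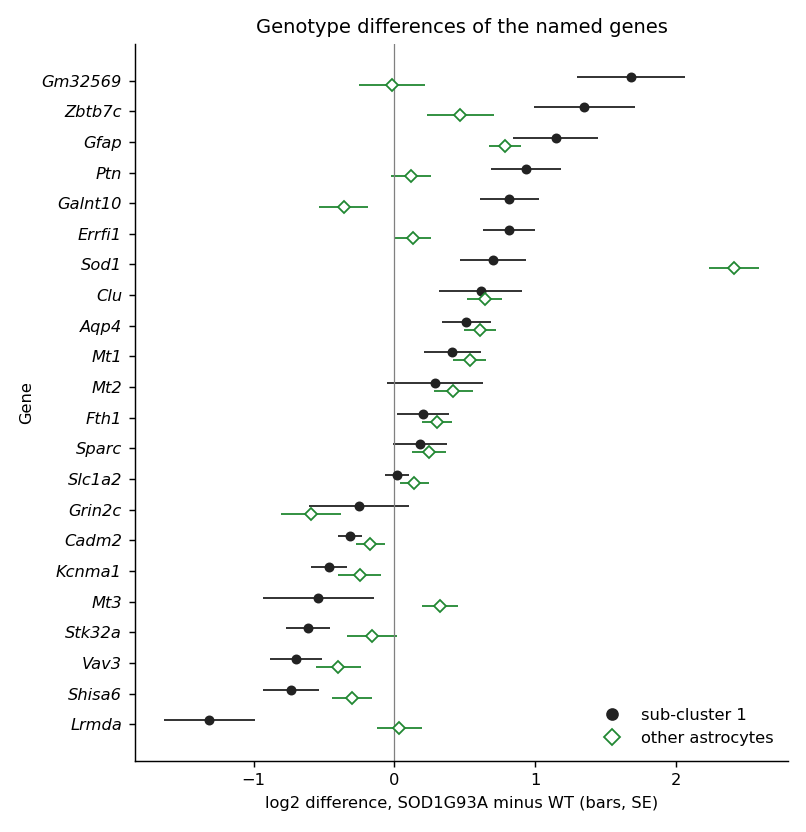
Log2 difference, SOD1G93A minus WT, of the named genes in sub-cluster 1 (black circles) and in the other astrocytes (green diamonds), with bars for the SE. Sod1 lies at 0.70 in sub-cluster 1 and at 2.42 in the other astrocytes, and Lrmda at -1.31 and 0.03.

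None of the remaining chosen genes passed. Aqp4 had 0.51 ± 0.17, with 1.05 ± 0.26 in females and -0.03 ± 0.22 in males. In the other astrocytes Aqp4 had 0.61 ± 0.11 with FDR = 0.0646 in limma-voom and Clu, or clusterin, had 0.64 ± 0.13 with FDR = 0.0789, beside 0.61 ± 0.30 for Clu in sub-cluster 1. Fitted singly, the other 4 sub-clusters gave 0.38 to 0.57 for Aqp4 and 0.27 to 0.72 for Clu, all positive, and none passed. These single fits rest on fewer UMIs than the sum, and the mix in the sum differed between genotypes. The part of either in the calls was not tested. Mt1 and Mt2, the metallothioneins, had 0.41 ± 0.21 and 0.29 ± 0.34, and Mt3 had -0.54 ± 0.40. Sparc, a matrix glycoprotein, Fth1 and Slc1a2 had 0.18 ± 0.19, 0.20 ± 0.19 and 0.02 ± 0.08. Grin2c had -0.25 ± 0.36. Leaving out single mice moved Mt3 between -0.76 and -0.21, Grin2c between -0.46 and -0.13, Mt1 between 0.27 and 0.56 and Sparc between 0.0449 and 0.247. Aqp4 moved between 0.335 and 0.580 and Clu between 0.403 and 0.704. Fos, with 2 and 1 UMIs over the WT and the SOD1G93A mice, and Hpse2, with 10 and 4, were not tested.

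Of the lists of genes, none had a member that passed (0%). The list of 20 astrocyte identity genes had 19 tested, 10 with a positive difference, and a median of 0.01. The gray matter list had 12 of 16 tested and a median of -0.06, and the white matter list 5 of 14, with 4 positive and a median of 0.51. The latter median is the value of Aqp4 itself, given above. Of the reactive genes, 1 of 13 pan-reactive genes was tested, which was Gfap, 1 of 12 of the A1 list, Fkbp5, at -0.44, and none of the 12 of the A2 list. In this sub-cluster Lcn2, Steap4 and Cxcl10 of the pan-reactive list had no UMI in any mouse. Most reactive genes were thus not compared, having too few UMIs to pass the filter.

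The 18 of 20 tested genes of glutamate and GABA uptake and receptors had a median of -0.06 and the 11 of 12 of the aquaporin and dystrophin complex 0.01. Slc1a2 and Gabrb1, a GABA receptor subunit, were at 6182 ± 685 and 5012 ± 578 CPM in WT and at 6233 ± 729 and 5287 ± 660 CPM in SOD1G93A mice. Dmd, or dystrophin, 1 of 4 negative genes beside 7 positive on the second list, had -0.60 ± 0.17 in females and -0.03 ± 0.13 in males. The medians were 0.09 for 14 of 25 cholesterol and lipid genes, 0.09 for 8 of 10 genes of gap junctions and potassium buffering, and -0.05 for 4 of 11 genes of the STAT3 and IL-6 pathway. The 6 of 18 secreted synapse modulators had -0.23, with 5 negative, and Gpc5 is the most abundant of them. The 4 metallothionein and ferritin genes had 0.24 and the 2 of 15 complement genes, Clu and Cd46, 0.37.

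The 4 of 18 heat-shock genes had a median of -0.25, the 16 of 75 respiratory chain genes 0.29, with 12 positive, and the single ribosomal gene of 82, Rps24, had -0.04. None of the 10 immediate early genes passed the filter. Of markers of other cell types, 3 of 8 neuron genes had a median of -0.34, 3 of 8 oligodendrocyte genes 0.06, and 1 gene each of oligodendrocyte precursors (Tnr) and fibroblasts (Col1a2) had -0.60 ± 0.49 and -1.23 ± 0.46. No marker of microglia, endothelial and mural, ependymal or Schwann cells passed the filter on low counts.

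Sex was compared over both genotypes, female minus male. In limma-voom 15 genes (0.453%) passed FDR < 0.1, 7 of them on the X and Y chromosomes. The other 8 were Ebf1, Fam155a, Cacna2d3, Kazn, Arhgap31, 5730522E02Rik and Wnk2, which were higher in females, and B3galt1, which was lower. Cacna2d3, a calcium channel subunit, had 0.69 on the log2 scale with FDR = 0.00431, and B3galt1, a galactosyltransferase, had -0.40 with FDR = 0.0733. The next genes lower in females, Cdh13 and Nckap5, had -1.55 and -0.62 and did not pass.

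Ebf1, a transcription factor, had 1.42 with FDR = 0.00431 in limma-voom. Its level was 117, 72.2 and 166 CPM in female WT and 90.5, 52.5 and 147 CPM in male WT mice of pools A, B and C. It was 157, 34.2 and 794 CPM in female SOD1G93A and 54.6, 29.1 and 86.9 CPM in male SOD1G93A mice. The value of the female SOD1G93A mouse of pool C, from 36 UMIs in 7 nuclei, stood far above the rest, and without that mouse the difference was 0.73 with FDR = 0.653. The call of Ebf1 was also lost without the male SOD1G93A mouse of pool C, at FDR = 0.124, and without the pool term, at 0.723. Fam155a had 0.61 and FDR = 0.156 without the same female, and Cacna2d3 had 0.54 and FDR = 0.135 when the WT male of pool A was left out. B3galt1 kept its direction but missed the threshold in edgeR and DESeq2, at FDR = 0.231 and 0.162, and without any of 7 single mice, with log2 differences between -0.44 and -0.38. No gene passed for a genotype difference that differs between the sexes in limma-voom, edgeR or DESeq2, with 173 of 3309 at an unadjusted p below 0.05 in limma-voom.

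The count of genes that passed for genotype depended on single mice. Leaving out each mouse in turn gave 0 to 12 genes, with the most, 11 higher and 1 lower, without the female WT mouse of pool C. Without the 3 female SOD1G93A mice, so that the fit gives the difference in males alone, 8 genes passed. Sema6d, Shroom3, Slc38a1 and Glis3 were higher by 0.842, 0.714, 1.197 and 1.013, and Stk32a, Vav3, Kcnip4 and Nrxn3 were lower, with -0.90, -0.90, -0.79 and -0.58.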

How the data were processed

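Nuclei of lumbar spinal cord were sequenced with 10x chemistry in 3 pools of 4 hashtagged mice. The authors aligned reads with Cell Ranger 3.1 to mm10 with pre-mRNA, removed nuclei with fewer than 200 genes or over 10% mitochondrial UMIs, and clustered with Seurat 4.0.3. The settings of the sub-clustering are not given in the sources used here. The deposited counts are UMIs per gene and nucleus, not normalized and without mitochondrial genes, and the deposited mitochondrial percent is per nucleus. Only doublets between mice could be removed by hashtag. The deposited normalized table was not used.

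UMIs were summed per mouse and sub-cluster. Each pool held 1 mouse per sex and genotype, so pool was a term of the model. The correlation of deviations from group means between mice of the same pool had a median of 0.07, and 5 of 18 were over 0.1. Genes were filtered with filterByExpr (minimum count of 10), scaled with TMMwsp and fitted with voom and limma 3.58.1 with robust eBayes, with Benjamini-Hochberg adjustment. The difference between sub-cluster 1 and other astrocytes had mouse as block with duplicateCorrelation. Shares were fitted with edgeR 4.0.16. Scripts were tested on simulated data. DESeq2 1.42.0 and edgeR were alternatives.

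Named genes were 13 chosen genes, per direction 6 genes of smallest p with the same direction in at least 5 of 6 pairs, list members of highest level, 15 higher and 10 lower markers, 5 genes per direction for the difference between sets and 3 per direction for sex. The sub-cluster, lists and genes were chosen with earlier results of these data known.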

Additional observations from a re-analysis of the deposited data

Results flagged for a closer look

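Among the 54 sets of 6 mice of 1 genotype that were checked, 4 had a mouse whose gap to the next was large against the range, and chance alone flags about 1 in 20 sets. In the median mitochondrial percent of sub-cluster 1, the female WT mouse of pool A stood apart at 0.644%. The share of sub-cluster 1 among all nuclei was 3.47% in the male SOD1G93A mouse of pool C, above the other SOD1G93A mice. Gfap was at 439.6 CPM in the female SOD1G93A mouse of pool A, from 14 UMIs in 9 nuclei. Mt3 was at 134.7 CPM in the male WT mouse of pool A, above the other WT mice.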

How the results depend on the processing

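The values rest on 93 SOD1G93A nuclei, 21 of them female, and on few UMIs for Gfap, Sod1 and the reactive genes, and absent calls do not show equal levels. For genotype in sub-cluster 1, the 0 calls of the main fit became 1 with DESeq2, 5 without the robust option of eBayes, 2 with voomWithQualityWeights, 8 without mice of fewer than 10 nuclei and 21 in male mice alone, and stayed at 0 with edgeR, TMM, a minimum count of 30 and no pool term, and without nuclei carrying other markers, of which there were none. Without a filter on low counts, so that every gene with a UMI was fitted, 6749 genes passed, of which 82.7% had fewer than 12 UMIs over all mice. Among the 3309 genes of the main fit, 432 passed. In the unfiltered fit 2901 genes passed for sex, 33 for the interaction of sex and genotype, and 107 list members for genotype. Sparc, Fth1, Mt2 and Slc1a2 changed sign there, to -0.0432, -0.0534, -0.0069 and -0.206. These counts show how far the fit depends on the filter and are not read as changes. Leaving out each mouse gave 0 to 12 calls for genotype, 0 to 2 for the difference from the other astrocytes, 9 to 48 for sex against 15 with all mice, 405 to 465 markers and a log2 share difference of -1.67 to -1.19. Calls for genotype were absent without the WT male of pool C, the SOD1G93A females of pools B and C or the SOD1G93A male of pool C, and ranged from 1 to 12 without any other mouse. For sex, the count moved by over 1.5 times without the WT females of pools B (31) and C (48), the WT male of pool A (9), or the SOD1G93A female (26) or male (23) of pool A. Slc1a2, Fth1 and Mt2 changed sign over the left-out mice, with ranges of -0.0523 to 0.0454, -0.11 to 0.33 and -0.15 to 0.56.

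The pool is the pairing block, and without this replicate block 9 genes passed for sex, 0 for genotype and 0 for the difference from the other astrocytes, and the log2 share difference was -1.39. Aqp4 was at -0.0377 without mice of fewer than 10 nuclei and at -0.0345 in male mice alone. Both are differences in males, close to the male value of the main fit, while the mean of both sexes was 0.51. The difference from the other astrocytes had 1 call, Sod1, against sub-cluster 0 alone. It had 2 calls without mice of fewer than 10 nuclei, Sod1 and Rad51b, in a fit of the difference in males alone. Markers numbered 145 against sub-cluster 0 alone and 708 in SOD1G93A mice alone. The log2 share difference was -1.84 as a ratio to other astrocytes and between -1.39 and -1.24 with other denominators, scalings or no pool term. The sign-flip test of the share was not run, since the share is given without a test. The fits of male mice alone, the markers over 12 mice or without single mice and the share among sub-clusters 0, 1 and 3 were chosen after seeing the data. The cause of these shifts was not tested.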
